A study of Mus musculus with 12 samples.

Results

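The genes described here are 8 annexins (Anxa1, Anxa2, Anxa3, Anxa4, Anxa5, Anxa6, Anxa7 and Anxa11) and 2 formyl peptide receptors (Fpr1 and Fpr2) of the mouse. They were found by symbol, through their Ensembl gene IDs, and all 10 were present among the 49585 gene IDs counted in liver and the 55401 counted in macrophages. The libraries were made from poly(A) RNA of C57BL/6 mice and form 4 groups of 3. One pair of groups was untreated liver and liver 2 h after lipopolysaccharide (LPS), the bacterial cell wall component sensed by a toll-like receptor. The other pair was peritoneal macrophages, phagocytes taken from the abdominal cavity, that had carried a hairpin lentivirus for 72 h before 2 h of LPS. One group had a negative control hairpin (shNC), and the other a hairpin to knock down Gm26917 (shGm26917), a long non-coding RNA. Both macrophage groups therefore carried a lentivirus and had received LPS, there was 1 hairpin per group, and no macrophages without LPS or without virus were measured. The labels do not say whether the replicates of a group came from separate animals or cultures, so each p-value measures the spread between these libraries, which may be technical.

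Annexins are calcium-dependent proteins that bind to membrane phospholipids. Annexin A1 is known as a mediator that limits inflammation: it is induced by glucocorticoids, released from leukocytes and bound by formyl peptide receptors, of which Fpr2 is regarded as its main receptor. Formyl peptide receptors are G protein-coupled receptors of neutrophils, monocytes and macrophages. Fpr1 is best known for sensing formylated peptides from bacteria and mitochondria, and Fpr2 also binds serum amyloid A, cathelicidin and lipid mediators. The series title concerns the ubiquitination of annexin A1 protein, which transcript counts do not measure.

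Fpr1 and Fpr2 are neighbours on chromosome 17 (GRCm38, annotation GENCODE M21). Fpr1 lies at chr17:17876471-17883940 on the minus strand and Fpr2 at chr17:17887824-17893952 on the plus strand, so that the genes point away from each other with 3883 bases between their annotated starts. The 250 bases before each RefSeq start are shown because the receptors share this interval and were called together in both comparisons below. They are from RefSeq on GRCm38.p6, at chr17:17883940-17884189 for Fpr1 and chr17:17887574-17887823 for Fpr2, each written 5′ to 3′ on the gene's own strand, with matches to a TATA box (TATAAA) in capitals.
Fpr1 upstream: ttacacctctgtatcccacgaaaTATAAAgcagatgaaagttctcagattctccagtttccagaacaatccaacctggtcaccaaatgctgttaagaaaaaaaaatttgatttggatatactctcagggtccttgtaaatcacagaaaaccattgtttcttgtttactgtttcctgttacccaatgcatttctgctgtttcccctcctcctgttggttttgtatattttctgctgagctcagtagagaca
Fpr2 upstream: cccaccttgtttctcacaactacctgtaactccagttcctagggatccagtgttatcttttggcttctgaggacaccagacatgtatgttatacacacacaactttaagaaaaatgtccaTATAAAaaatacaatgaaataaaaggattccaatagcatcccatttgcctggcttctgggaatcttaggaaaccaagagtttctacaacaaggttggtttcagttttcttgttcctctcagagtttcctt
The match lay at bases -227 to -222 of Fpr1 and at -130 to -125 of Fpr2, counted from the start site. Both windows, taken with the 50 bases after the start, were poor in G and C (40.0% and 39.3%, against a median of 52.7% over 32817 mouse promoters) and held 1 CpG each, against a median of 7.

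Anxa1, on the minus strand of chromosome 19 (chr19:20373428-20390944), and Anxa2, on the plus strand of chromosome 9 (chr9:69453620-69491795), are shown by the 30 bases around each motif match, because Anxa2 had the profile closest to that of Anxa1 in liver. In Anxa1 the capitals mark a C/EBP match (TTGCNNAA, here on the opposite strand) and a TATA box. The 30-base stretches that hold them are chr19:20390796-20390825 and chr19:20390686-20390715. In Anxa2 the capitals mark an AP-1 match (TGANTCA) within the stretch chr9:69453576-69453605 and a TATA box within the stretch chr9:69453654-69453683.
Anxa1 C/EBP: tccgggagtagTTTTGCAAgacttgtttct
Anxa1 TATA: cagttcatatccTATAAAatcaggagtcca
Anxa2 AP-1: ttccaagttggaTGAGTCAcccagcagggt
Anxa2 TATA: ggatggggcgggTATAAAagccccacccag
Searched over both strands of 300-base windows, TATAAA occurred in 13.6% of all promoters, the C/EBP letters in 10.8% and the AP-1 letters in 7.81%. The other motifs searched were PU.1 (GAGGAAGT, 3.20%), an interferon response element (3.43%), a glucocorticoid response element (0.475%) and the kappaB element (8.46%), and no match to these was found in the windows of Anxa1, Anxa2, Fpr1 or Fpr2. Of the 10 genes, 8 had a promoter in this table. A match is a stretch of letters and was not measured as a binding site. A transcript of Anxa1 in GENCODE starts further upstream, so that its first exon covers the Anxa1 stretches, and a first exon of Anxa2 covers its TATA stretch.

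The liver libraries held between 17322770 and 20913964 counts and the macrophage libraries between 15605311 and 18062853. The labelled tissues were checked against marker genes. The 8 hepatocyte markers summed to 64247 to 129774 CPM (counts scaled to library size, the unit of levels below) in each liver library, and in macrophages the 8 macrophage markers summed to 12805 to 27265 CPM, while 4 of the 8 hepatocyte markers (Ttr, Serpina1c, Cps1 and Apob) were at 0. Of the others, Alb, Apoa1 and Cyp2e1 were at most 0.469 CPM in any macrophage library, and Ass1, an enzyme of arginine synthesis, was 43.4 to 231 CPM. Gm26917, the target of the hairpin, was 84.8, 234 and 160 CPM in untreated liver and 480, 220 and 338 CPM after LPS, with overlapping groups (log2 fold change 1.12, edgeR adjusted p = 0.0492, with the call lost in 7 of 11 alternative settings). It was not analysed here in macrophages, so the knockdown itself was not checked, and the macrophage groups rest on their labels. The library shNC replicate 2 stood apart from its group: its root mean square log2 difference to the other two was 0.876, against 0.391 to 0.606 in the other macrophage libraries. Its mast cell markers summed to 30.3 CPM, against 2.09 to 4.71 CPM in the other macrophage libraries. Its stellate and mesothelial markers summed to 25.1 CPM, against 1.48 to 3.18 CPM. Its B cell markers summed to 629 CPM, against 121 to 299 CPM, so B cell transcripts were counted in every macrophage library. The macrophage marker Fcgr1 was 1115 CPM in it, against 6.70 to 54.1 CPM.

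Levels were compared between genes as RPKM, that is read counts scaled by library size and by exon length. In untreated liver, Anxa5, a phosphatidylserine-binding annexin, and Anxa6, a large annexin with a duplicated core, stood highest at 38.5 ± 4.02 and 34.5 ± 6.44 RPKM (SD, n = 3) and did not differ beyond their spread. Anxa7 followed at 12.7 ± 3.19 RPKM and Anxa4 at 7.54 ± 0.749 RPKM. The remaining genes lay between 0.830 and 2.52 RPKM, in the order Anxa2, Anxa11, Fpr1, Anxa3, Anxa1 and Fpr2, and the ranges over libraries of neighbours in that order overlapped. Anxa1 was thus among the lowest of the annexins in liver, at 1.05 ± 0.320 RPKM.

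In shNC macrophages the receptors led the order. Fpr1 stood at 773 ± 125 RPKM, above Fpr2 at 413 ± 74.1 RPKM and Anxa5 at 402 ± 47.3 RPKM, and the last pair did not differ beyond their spread. Anxa6 (103 ± 51.3 RPKM), Anxa2 (61.4 ± 36.0 RPKM), Anxa7 (50.9 ± 8.16 RPKM) and Anxa4 (40.5 ± 6.03 RPKM) formed a middle group in which neighbours overlapped. Anxa3 (19.1 ± 2.68 RPKM), Anxa1 (11.2 ± 3.20 RPKM) and Anxa11 (8.72 ± 0.285 RPKM) were lowest. Liver and macrophages were counted on different sets of gene IDs and scaled apart, so the orders stand side by side without a test.

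After 2 h of LPS, both receptors rose steeply in liver, by 3.22 and 4.47 on the log2 scale. Anxa1, Anxa2 and Anxa7 rose by 0.94 to 1.20, and Anxa11 fell by 1.93. In the quasi-likelihood test of edgeR, with p-values adjusted by Benjamini-Hochberg over all genes tested, 5 of the 10 genes were higher, 1 was lower and 4 were not called at an adjusted p under 0.05. Of all 13869 genes tested in liver, 45.3% were called, 23.3% higher and 22.1% lower. The values of the groups did not overlap for 8 of the 10, against 57.8% of all genes tested, and the median log2 fold change was 0.63, against -0.06 over all genes. With so many liver genes called, these counts by themselves do not set the 10 genes apart, and the single genes carry the description. With library totals in place of TMM scaling, 2 were higher and 3 lower, and the median of all genes moved from -0.06 to -0.49. The count of higher genes was 3 when untreated replicate 1, untreated replicate 2 or LPS replicate 1 was left out, and 2 genes were lower without untreated replicate 1.

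**Figure D1:**
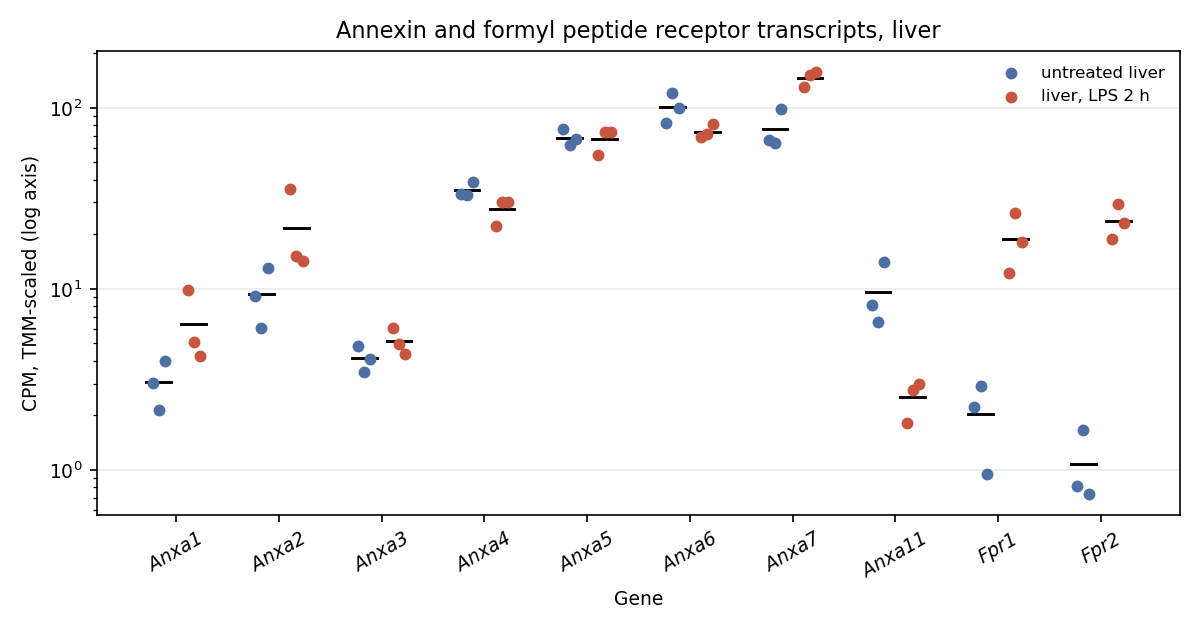
Levels of the 10 genes in each liver library, in CPM on a log axis; points are libraries, black bars are group means over 3 libraries, blue is untreated and red is LPS. Fpr1 and Fpr2 lie at 0.738 to 2.92 CPM in untreated liver and at 12.3 to 29.5 CPM after LPS, and Anxa11 is the gene that was called lower.

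Fpr2, the annexin A1 receptor, was 0.819, 1.67 and 0.738 CPM in untreated replicates 1, 2 and 3 and 18.7, 29.5 and 23.2 CPM in LPS replicates 1, 2 and 3. All LPS libraries were far above all untreated ones. It rose 22.1-fold (log2 fold change 4.47, SE 0.35, adjusted p = 2.80e-05). Fpr1, the formylated peptide receptor, was 2.23, 2.92 and 0.955 CPM in untreated liver and 12.3, 26.2 and 18.2 CPM after LPS, again without overlap. It rose 9.29-fold (log2 fold change 3.22, SE 0.43, adjusted p = 0.000524). Both calls held in all 12 alternative settings, with log2 fold changes of 2.79 to 3.54 for Fpr1 and 4.06 to 4.90 for Fpr2. Per length, the summed level of the receptors was 1.29 to 3.49 RPKM in untreated libraries and 23.7 to 42.5 RPKM in LPS libraries.

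In whole liver, more cells of a type and more RNA per cell cannot be told apart. Neutrophil markers moved with the receptors: 10 of 11 tested markers rose, their sum was 3.91 to 9.25 CPM in untreated liver and 232 to 326 CPM after LPS, and Ly6g, a defining marker, was at 0 in untreated liver and at 0.380 to 0.888 CPM after LPS. LPS replicate 2 had the highest neutrophil sum and also the highest Fpr1 and Fpr2. Between LPS replicates 1 and 3 the order was reversed. Neutrophil sums were 256 and 232 CPM, Fpr1 was 12.3 and 18.2 CPM and Fpr2 was 18.7 and 23.2 CPM. Of 8 macrophage markers 3 rose (Cd14, Itgam and Fcgr1), and their sum was 121 to 152 CPM and then 337 to 555 CPM. Cd14, the LPS co-receptor, made up the rise in that sum, at 4.17 to 6.92 CPM and then 263 to 428 CPM, and the other 7 summed to 115 to 145 CPM and then 74.1 to 146 CPM. Kupffer cell markers summed to 209 to 249 CPM and then 70.8 to 226 CPM, with 1 of 6 lower, and 3 lower with library totals. The part of these cells in the receptor result was not tested.

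Anxa1, the glucocorticoid-induced annexin, was 3.00, 2.13 and 3.99 CPM in untreated liver (46 to 92 counts) and 9.84, 5.10 and 4.24 CPM after LPS (67 to 157 counts). LPS replicate 1 was the highest, and the lowest LPS library was just above the highest untreated one. Its mean went from 3.04 ± 0.932 to 6.40 ± 3.02 CPM (log2 fold change 1.07, SE 0.38, adjusted p = 0.0470). The call was lost in 6 of 12 alternative settings, among them library totals (0.64, adjusted p = 0.210) and the omission of LPS replicate 1 (0.63, adjusted p = 0.164), untreated replicate 1 (1.05, adjusted p = 0.103), untreated replicate 2 (0.84, adjusted p = 0.142) or LPS replicate 2 (1.22, adjusted p = 0.0584).

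Anxa2, which works with S100A10 at the plasma membrane and in plasminogen activation, followed the same pattern. It was 9.10, 6.12 and 13.03 CPM in untreated liver and 35.5, 15.3 and 14.3 CPM after LPS, with LPS replicate 1 again the highest and no overlap (log2 fold change 1.20, SE 0.40, adjusted p = 0.0374). Its call was lost in 5 settings, among them library totals (0.77, adjusted p = 0.153) and the omission of LPS replicate 1 (0.67, adjusted p = 0.130), untreated replicate 1 (1.17, adjusted p = 0.0919) or untreated replicate 2 (0.94, adjusted p = 0.120). In LPS replicate 1 Krt19, 1 of 6 bile duct markers, was 15.5 CPM, against 1.22 and 1.84 CPM in the other LPS livers. The 6 bile duct markers summed to 93.5 CPM there, against 94.6 and 98.7 CPM. Spp1 made up much of each sum, at 46.5 CPM, against 59.1 and 66.4 CPM. Krt7 (1.94 CPM) and Cldn7 (3.51 CPM) were also highest there among the LPS livers, and Epcam, Sox9 and Spp1 were not. The mesothelial markers Msln and Upk3b had 12 and 14 counts there, against 1 count each in both other LPS livers. In untreated livers they had 12 to 32 and 10 to 36 counts. The annexin A2 partner Ahnak was 34.3 CPM in LPS replicate 1, against 13.3 and 15.8 CPM in the other LPS livers. The Kupffer cell sum there was 70.8 CPM, against 177 and 226 CPM. The part of this library's make-up in the Anxa1 and Anxa2 values was not tested.

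Anxa7, a calcium-dependent membrane fusion annexin, was 66.3, 64.3 and 98.3 CPM in untreated liver and 131, 151 and 158 CPM after LPS. The LPS libraries were close together and all above the untreated ones (log2 fold change 0.94, SE 0.22, adjusted p = 0.00879). Its call was lost only with library totals (0.51, adjusted p = 0.0782). Anxa11, an annexin that tethers RNA granules to lysosomes, went the other way, from 8.15, 6.58 and 14.2 CPM to 1.82, 2.77 and 2.97 CPM, again with no overlap. It fell 3.81-fold (log2 fold change -1.93, SE 0.35, adjusted p = 0.00256), and the call held in all 12 settings. The antisense gene Anxa11os shares 2.73% of the exon bases of Anxa11, and the sources used here do not say whether strand was used in counting. Anxa11os itself had 1, 1 and 0 counts in untreated liver and 0, 3 and 0 counts after LPS.

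The other annexins were not called in liver. Anxa6 was 82.8, 120 and 99.7 CPM in untreated liver and 69.2, 71.5 and 81.1 CPM after LPS, without overlap (log2 fold change -0.45, SE 0.20, adjusted p = 0.0912). Anxa4, an annexin of epithelial membranes, was 33.2, 32.8 and 39.0 CPM and then 22.3, 30.1 and 30.2 CPM (log2 fold change -0.35, adjusted p = 0.156), also without overlap. Both passed the threshold with library totals (-0.87, adjusted p = 0.00371 for Anxa6 and -0.78, adjusted p = 0.00926 for Anxa4), and Anxa6 also without untreated replicate 1 (-0.58, adjusted p = 0.0430). Anxa5 (-0.02, adjusted p = 0.929) and Anxa3 (0.31, adjusted p = 0.346, and -0.13 with library totals) overlapped between groups. Summed per length, the 8 annexins were 96.2 to 106 RPKM in untreated liver and 96.1 to 109 RPKM after LPS, overlapping ranges.

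In macrophages under LPS, the hairpin against Gm26917 went with higher Anxa1, Anxa3 and Anxa4 and with lower Fpr1, Fpr2 and Anxa7. Thus 3 genes were higher, 3 lower and 4 not called. Of all 12876 genes tested, 23.7% were called, 12.6% higher and 11.1% lower. The groups did not overlap for 8 of the 10, against 45.9% of all genes tested, and the median log2 fold change was -0.33, against 0.00 over all genes. With library totals 4 were higher and 1 lower, and the median of all genes moved to 0.29. Without shNC replicate 2, 5 were lower, and without any other single library 1 was lower, while 3 were higher each time.

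**Figure D2:**
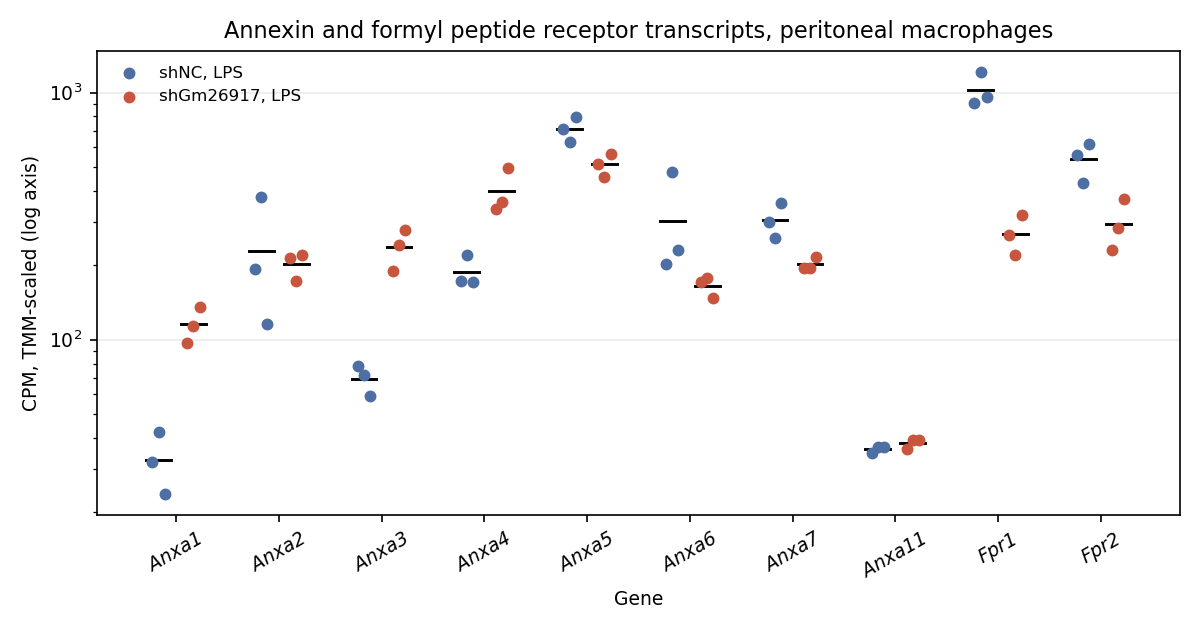
Levels of the 10 genes in each macrophage library, in CPM on a log axis; points are libraries, black bars are group means over 3 libraries, blue is shNC and red is shGm26917. Anxa1 lies at 23.8 to 42.4 CPM with shNC and at 96.9 to 135 CPM with shGm26917, and Fpr1 at 903 to 1212 CPM and at 219 to 319 CPM.

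Anxa1 was 32.0, 42.4 and 23.8 CPM in shNC replicates 1, 2 and 3 (352 to 627 counts) and 96.9, 114 and 135 CPM in shGm26917 replicates 1, 2 and 3 (1903 to 2388 counts). Every shGm26917 library was above every shNC library by a wide margin. It rose 3.52-fold (log2 fold change 1.82, SE 0.24, adjusted p = 0.00521), and the call held in all 12 settings with log2 fold changes of 1.62 to 2.10. Anxa3, an annexin known from neutrophil granules, was 78.0, 71.8 and 58.9 CPM and then 189, 243 and 277 CPM, with no overlap. It rose 3.40-fold (log2 fold change 1.76, SE 0.19, adjusted p = 0.00351), also in all 12 settings. Anxa4 was 173, 221 and 171 CPM with shNC and 339, 360 and 496 CPM with shGm26917, again without overlap. It rose 2.12-fold (log2 fold change 1.08, SE 0.20, adjusted p = 0.0127), and the call held in all 12 settings.

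The receptors and Anxa7 were lower. Fpr1 was 903, 1212 and 957 CPM with shNC and 264, 219 and 319 CPM with shGm26917. All shNC libraries were far above the others, and shNC replicate 2 was the highest. It fell 3.83-fold (log2 fold change -1.94, SE 0.21, adjusted p = 0.00351), and the call held in all 12 settings. Fpr2 was 557, 431 and 620 CPM and then 230, 283 and 371 CPM, with a narrow gap between the lowest shNC and the highest shGm26917 library. It fell 1.82-fold (log2 fold change -0.86, SE 0.23, adjusted p = 0.0363). Anxa7 was 300, 259 and 356 CPM and then 194, 195 and 215 CPM, with no overlap. It fell 1.51-fold (log2 fold change -0.60, SE 0.15, adjusted p = 0.0338).

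The calls of Fpr2 and Anxa7 were lost in several settings. Omitting any single library except shNC replicate 2 ended both, with adjusted p-values up to 0.130 and log2 fold changes of -0.71 to -1.06 for Fpr2 and of -0.48 to -0.65 for Anxa7. Without shNC replicate 2 they were -1.01 (adjusted p = 0.00578) for Fpr2 and -0.72 (adjusted p = 0.00386) for Anxa7. With library totals they were -0.57 (adjusted p = 0.0999) for Fpr2 and -0.30 (adjusted p = 0.161) for Anxa7.

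The remaining annexins were not called in macrophages. Anxa6 was 203, 476 and 230 CPM with shNC and 171, 177 and 148 CPM with shGm26917, without overlap and with shNC replicate 2 far above the rest (log2 fold change -0.88, SE 0.33, adjusted p = 0.0980). Without that library it was -0.41 (adjusted p = 0.0376). Anxa2 was 193, 377 and 116 CPM and then 215, 173 and 221 CPM, with shNC replicate 2 again the highest and the groups overlapping (log2 fold change -0.18, SE 0.40, adjusted p = 0.778). Its sign turned without that library (0.38, adjusted p = 0.203) and with library totals (0.11, adjusted p = 0.852). Anxa5 was 714, 630 and 798 CPM and then 514, 457 and 563 CPM, without overlap (log2 fold change -0.48, SE 0.16, adjusted p = 0.0692, and adjusted p = 0.0152 without shNC replicate 2). Anxa11 hardly varied, at 34.7 to 36.8 CPM and 36.1 to 39.3 CPM (log2 fold change 0.08, SE 0.10, adjusted p = 0.571, and 0.38 with adjusted p = 0.0385 for library totals).

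Markers of other cells were read beside these values. Of 4 tested neutrophil markers 1 rose and 1 fell, their sum was 781 to 1242 CPM with shNC and 625 to 752 CPM with shGm26917, and the defining markers Ly6g, Retnlg, Ngp and Stfa2l1 were at 0 in all 6 libraries. Of the 8 macrophage markers, Csf1r, Cd68 and Lyz2 rose and Cd14 fell, and of these calls that of Csf1r alone held in all 12 settings. Of the markers of resident macrophages, a few were called higher and most were not called. Among all genes tested, 12.6% were called higher. Of 5 tested Kupffer cell markers, Vsig4 rose 4.97-fold (lost without shGm26917 replicate 2) and Clec1b 9.21-fold (lost in 6 of 12 settings), the list's sum was 23.9 to 30.4 CPM with shNC and 66.7 to 120 CPM with shGm26917, and Clec4f, a defining marker, was at 0. Of 6 markers of large peritoneal macrophages 1 rose, Alox15 (11.7-fold, lost in 5 of 12 settings), and Gata6, a defining marker, was 15.7 to 40.8 CPM and 23.3 to 33.2 CPM, with overlapping groups. Among 6 monocyte markers Ly6c2 fell and none rose, with sums of 32.8 to 108 CPM and 25.7 to 33.7 CPM. Of 6 B cell markers none was called, with sums of 199 to 629 CPM with shNC and 121 to 296 CPM with shGm26917. The part of differences in cell make-up in the annexin and receptor values was not tested.

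The make-up of the annexin pool shifted while its sum overlapped between hairpins, at 651 to 752 RPKM with shNC and 589 to 702 RPKM with shGm26917. Anxa1 made up 1.19% to 1.94% of the 8 annexins' summed RPKM with shNC and 5.51% to 6.63% with shGm26917. Anxa3 went from between 2.35% and 3.29% to between 8.59% and 11.3%, and Anxa4 from between 5.34% and 6.32% to between 12.1% and 15.2%. Anxa5 remained the most abundant annexin in every macrophage group, at 47.2% to 65.3% and 43.6% to 47.9%. The receptors' sum was 1111 to 1248 RPKM with shNC and 377 to 527 RPKM with shGm26917. With shGm26917 the order of the genes began with Anxa5 (288 ± 30.1 RPKM), Fpr2 (228 ± 54.7 RPKM) and Fpr1 (202 ± 37.8 RPKM), and the receptors did not differ beyond their spread.

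**Figure D3:**
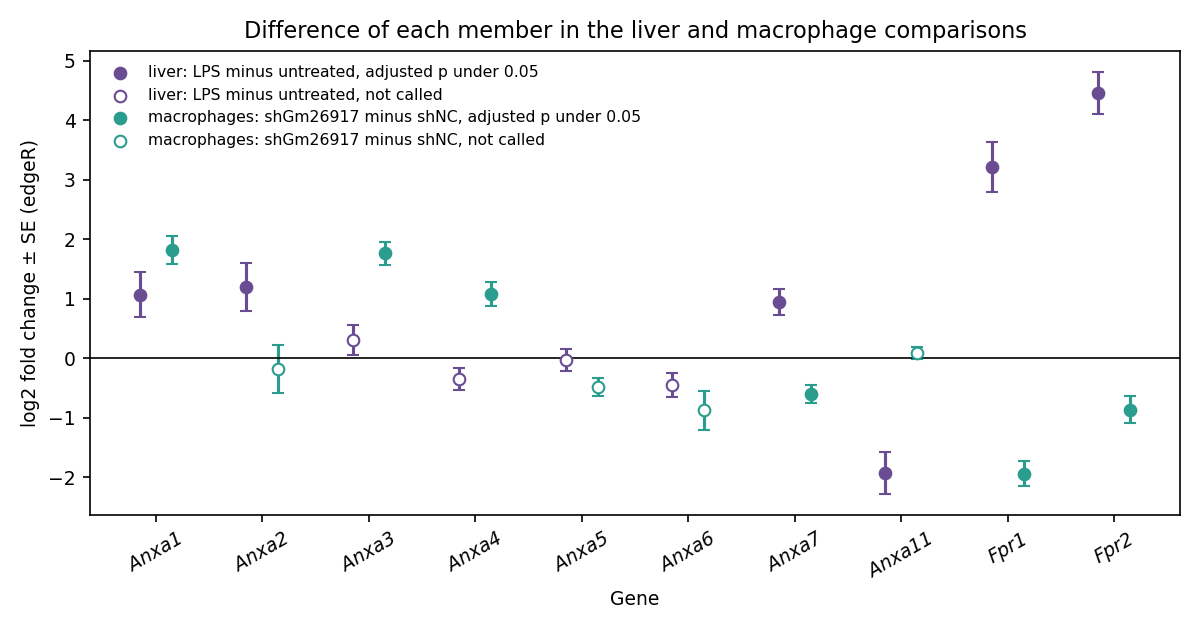
Log2 fold change of each gene with its SE, for liver (LPS minus untreated, purple) and macrophages (shGm26917 minus shNC, green); filled points had an adjusted p under 0.05 in edgeR. Fpr1, Fpr2 and Anxa7 lie above 0 in liver and below 0 in macrophages, and Anxa1 lies above 0 in both.

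Side by side, the comparisons gave different patterns for the annexins and opposite signs for the receptors. Anxa1 was called higher in both, at 1.07 in liver and 1.82 in macrophages on the log2 scale. Fpr1, Fpr2 and Anxa7 were called higher with LPS in liver and lower with shGm26917 in macrophages. Anxa2 and Anxa11 were called in liver alone, and Anxa3 and Anxa4 in macrophages alone. Of these calls, those of Anxa1, Anxa2 and Anxa7 in liver and of Fpr2 and Anxa7 in macrophages did not hold in all 12 settings. The comparisons share no samples and ask different questions, so the difference between them was not tested.

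Ratios of counts within a library do not depend on the scaling. The Fpr1 to Fpr2 ratio was 2.72, 1.75 and 1.29 in untreated liver and 0.656, 0.889 and 0.785 after LPS, so that Fpr1 led before and Fpr2 after treatment in read counts. In macrophages it was 1.62, 2.81 and 1.54 with shNC and 1.15, 0.773 and 0.860 with shGm26917. The groups did not overlap in either tissue, with log2 differences of -1.25 and -1.07, and the 2-sided exact permutation p was 0.1 each time, the smallest that 3 libraries against 3 allow. In all, 4 ratios were compared in each tissue, and none can pass 0.05 at this size.

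The Anxa1 to Anxa2 ratio was nearly constant in liver, at 0.330, 0.348 and 0.307 in untreated libraries and 0.277, 0.335 and 0.296 after LPS (log2 difference -0.12, exact permutation p = 0.3). In macrophages it was 0.166, 0.112 and 0.205 with shNC and 0.451, 0.658 and 0.613 with shGm26917, without overlap (log2 difference 1.86, exact permutation p = 0.1). The ratio of the ligand to its receptor, Anxa1 to Fpr2, was 0.0575, 0.0983 and 0.0383 with shNC and 0.420, 0.401 and 0.365 with shGm26917 (log2 difference 2.72, exact permutation p = 0.1). In liver the same ratio went from 3.67, 1.28 and 5.41 to 0.525, 0.173 and 0.183 (log2 difference -3.53, exact permutation p = 0.1). Anxa1 to Fpr1 differed in macrophages by 3.79 on the log2 scale without overlap (exact permutation p = 0.1) and overlapped in liver (-2.27, exact permutation p = 0.2).

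**Figure D4:**
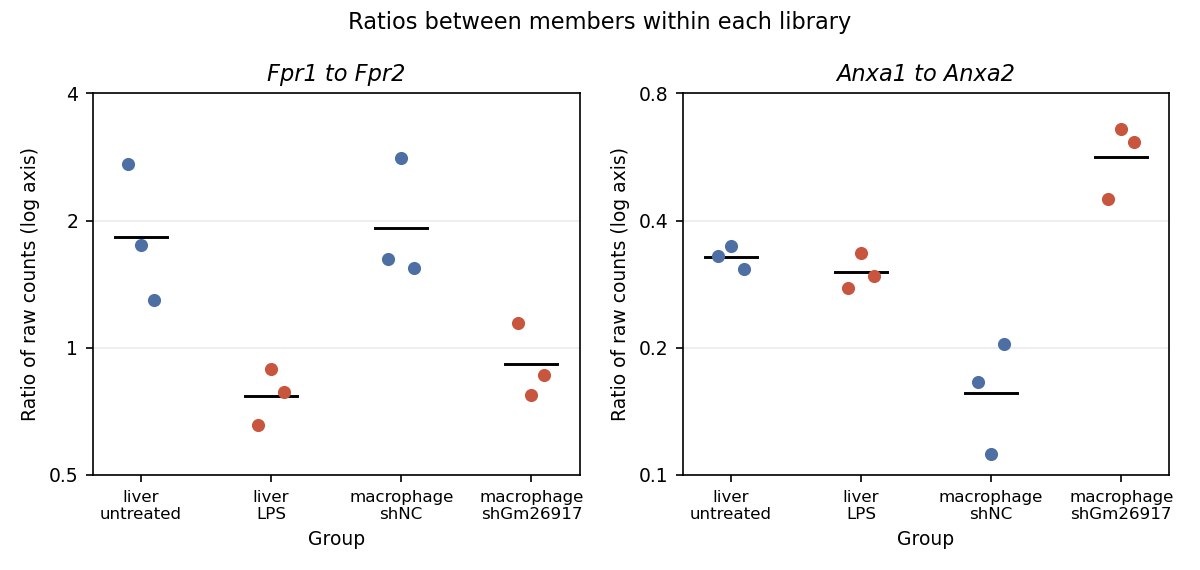
Ratios of raw counts within each library on log axes, for Fpr1 to Fpr2 (left) and Anxa1 to Anxa2 (right); points are libraries, black bars are group means of the log ratios. The Fpr1 to Fpr2 ratio is 1.29 or more in every control library and 1.15 or less in every treated one, and the Anxa1 to Anxa2 ratio separates the groups in macrophages but not in liver.

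The rest of both families was low or at 0 in these samples. Anxa9 and Anxa13 were tested in liver and not called (0.41, adjusted p = 0.435 and -0.37, adjusted p = 0.600), and Anxa9 alone was tested in macrophages (0.25, adjusted p = 0.564). Anxa8 and Anxa10 had at most 7 counts in any library. Fpr-rs3, Fpr-rs4, Fpr-rs6 and Fpr-rs7 were at 0 in all 12 libraries, and Fpr3 had 1 count in 1 shNC library, although it shares 48 exon bases (3.70% of the exon bases of Fpr2) on the same strand. Reads shared between these close relatives may have been left out or split by the counting.

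The genes whose profile over the 6 libraries of a tissue was most like that of Anxa1, Anxa2, Fpr1 and Fpr2 were ranked by the root mean square difference of centred log2 CPM. In liver the gene closest to Anxa1 was Anxa2 (0.121, against a median of 0.818 over all genes tested), followed by Prkcq (0.125) and Dapp1 (0.129). Those closest to Anxa2 were Emp1 (0.115), Anxa1 (0.121) and Syne2 (0.145). Fpr2 was followed most closely by Spic, a transcription factor of macrophages (0.251), the interferon-induced GTPase Irgm1 (0.251) and Pgam2 (0.292), against a median of 2.28. Fpr1 was followed by Gm6034 (0.218), Gm28068 (0.234) and Gm49342 (0.257), against a median of 1.75. Gm6034 and Gm28068 were near the floor in untreated liver, at 0.0921 and 0.107 CPM. Their log2 fold changes were 4.22 and 3.82, against 3.22 for Fpr1. The log2 CPM used a prior count of 2, which shrinks differences at such low levels.

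In macrophages Anxa1 and Anxa2 no longer followed each other. Anxa1 was followed by Kank3 (0.0953), Gm7694 (0.113) and Gnb5 (0.117), and Anxa2 by Adamts6 (0.137), Cdk6 (0.155) and Arhgap27 (0.156). Fpr1 was followed by Zbtb7c (0.142), the small GTPase Rhou (0.172) and Gm9574 (0.174), and Fpr2 by Gm9385 (0.0833), Gm12989 (0.0912) and the peroxiredoxin Prdx5 (0.0980). The medians over all genes tested were 0.991 for Anxa1, 0.611 for Anxa2, 1.05 for Fpr1 and 0.612 for Fpr2. A list of nearest genes over 6 libraries describes these libraries only. The nearest genes were picked by this distance, so their gap to the median follows from the ranking.

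Counts of called genes in the lists that follow stand against 23.3% higher and 22.1% lower of all liver genes tested, and 12.6% and 11.1% of all macrophage genes tested. S100 proteins bind annexins directly. In liver all 3 tested partners rose, with a median log2 fold change of 2.57. S100a10, the partner of annexin A2, rose from 107 ± 38.5 to 336 ± 39.1 CPM (log2 fold change 1.65, adjusted p = 0.00267), S100a11, a partner of annexin A1, by 2.57 and S100a6 by 2.77 on the log2 scale. In macrophages S100a6 (1.32, adjusted p = 0.00461) and S100a4 (1.84, adjusted p = 0.0180) rose and 2 of 4 were not called, S100a10 at 0.43 (adjusted p = 0.490) and S100a11 at -0.09 (adjusted p = 0.713). The S100a4 call was lost without shNC replicate 3 or any 1 of the shGm26917 libraries.

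Other ligands of the receptors rose in liver. Of 5 tested, 4 were higher and none lower. The serum amyloid A genes Saa1, Saa2 and Saa3 had log2 fold changes of 6.96, 8.37 and 9.81, with adjusted p-values of 0.000252 or less. Camp, the cathelicidin precursor, had 2 counts over the untreated livers and 117 over the LPS livers, a ratio of 78.2 with a 95% counting interval of 21.2 to 654. In macrophages 1 of 4 was lower and none higher: Camp fell 5.23-fold, from 3.61 ± 2.27 to 0.684 ± 0.0718 CPM (adjusted p = 0.0180, not called without any 1 of the shGm26917 libraries). Saa3 was 3.62-fold lower without passing the test (adjusted p = 0.0523).

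**Figure D5:**
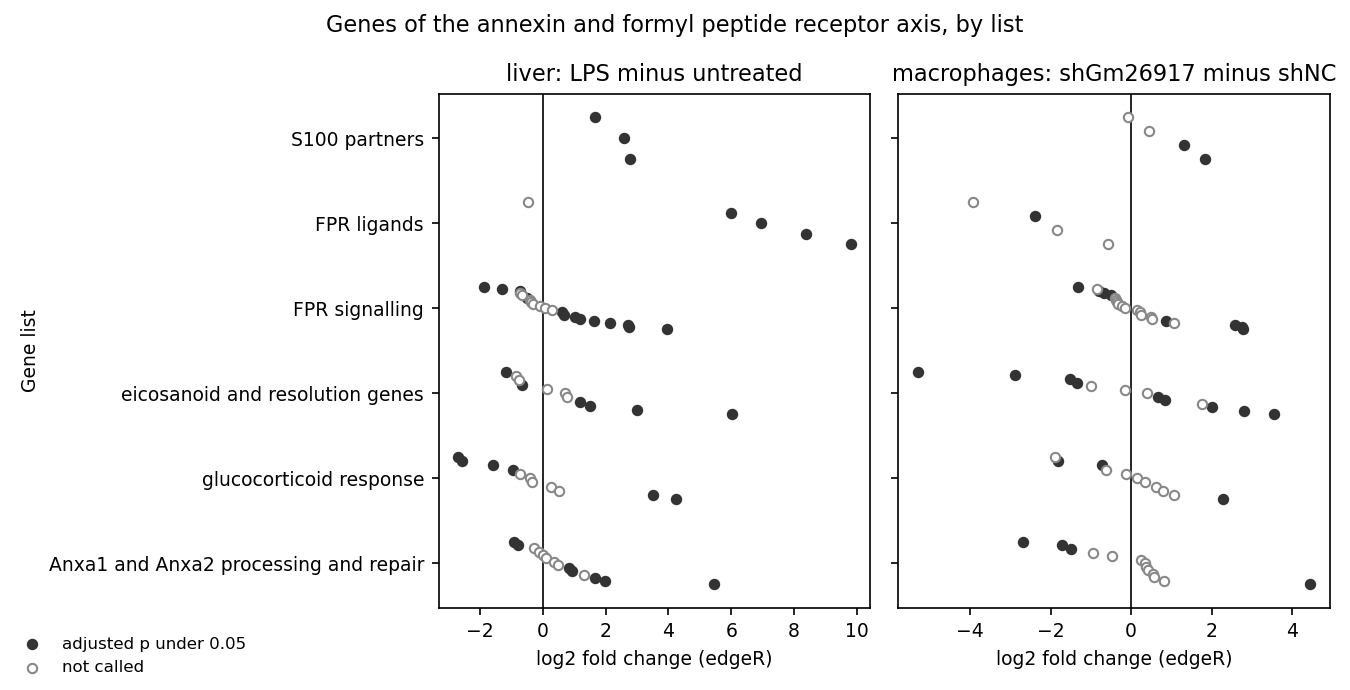
Log2 fold change of each tested gene of 6 lists around the annexins and receptors, in liver (left) and macrophages (right); filled points had an adjusted p under 0.05 in edgeR. All 3 tested S100 partners lie above 0 in liver, and the other lists hold called genes on both sides of 0 in at least 1 tissue or, for the ligands, on opposite sides.

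Of 21 signalling genes downstream of the receptors, 9 were higher and 4 lower in liver, against 45.3% of all genes called in either direction, with a median of 0.06. The count of lower genes was 2 without LPS replicate 2. Pik3r5, the regulatory subunit of the phosphoinositide kinase activated by G proteins, rose 15.4-fold, and the myeloid Src-family kinase Fgr rose 6.57-fold. Rgs1, which ends G protein signalling, rose by 2.14 on the log2 scale, with the call lost with library totals and on omitting untreated replicate 2 or either of LPS replicates 1 and 3. It was 3.66 without untreated replicate 1. The arrestins that desensitise the receptors both fell, Arrb1 by 1.88 and Arrb2 by 1.31 on the log2 scale. In macrophages 4 of 21 were higher and 4 lower, against 23.7% of all genes called, with a median of -0.16, and 2 were lower without shNC replicate 1 or 3 or without shGm26917 replicate 2 or 3. Fgr (6.86-fold), Rgs2 (6.71-fold) and Arrb1 (5.97-fold) rose and Rac2, a GTPase of the phagocyte oxidase, fell 2.48-fold, in all 12 settings, whereas Arrb2 was not called (0.14, adjusted p = 0.465). With library totals the counts were 5 higher and 8 lower in liver and 9 higher and 2 lower in macrophages.

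Genes of eicosanoid synthesis and resolution gave 4 higher and 2 lower of 11 in liver, with a median of 0.71. In macrophages they gave 5 higher and 4 lower of 13, with a median of 0.39. The share called in liver was near the 45.3% of all genes called there, and in macrophages that background was 23.7%. In liver 2 were higher without LPS replicate 1 and with library totals, and 1 was lower without untreated replicate 2 or 3 or LPS replicate 1 or 2. Ptgs2, the inducible cyclooxygenase, had 5 counts in untreated liver and 262 after LPS (ratio 70.1, 95% counting interval 29.7 to 218). In macrophages it went the other way, from 5459 ± 4090 to 138 ± 93.3 CPM, 39.7-fold lower (adjusted p = 0.00901, and 0.0515 without shGm26917 replicate 3). The lipoxygenase genes diverged in macrophages: Alox15 rose 11.7-fold and Alox5 7.03-fold, and Alox12 fell 7.36-fold. The Alox5 call held in all 12 settings, that of Alox12 was lost without shGm26917 replicate 2, and that of Alox15 whenever 1 library other than shNC replicate 2 was left out. Only 1 or 2 genes were higher when such a library was left out, in place of 5, and 2 were lower without shGm26917 replicate 3. In liver Ptges, which makes prostaglandin E, rose 8.04-fold, while the calls of Alox12 (2.83-fold higher) and of Ltb4r1, a leukotriene receptor (2.26-fold higher), were lost in 5 of 12 and 11 of 11 settings.

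Anxa1 is a classical glucocorticoid target, and other such targets were called in both directions. In liver 2 of 11 were higher and 4 lower, with a median of -0.40. The count of lower genes was 2 without LPS replicate 2, without LPS replicate 3 and with the replicate block, with the calls of Per1 and Sgk1 lost. Mt2, a metallothionein, and Cebpd rose by 4.25 and 3.51 on the log2 scale, and Klf9 and Tsc22d3, which encodes the glucocorticoid-induced leucine zipper, fell 6.49-fold and 5.98-fold. In macrophages 1 of 11 was higher and 2 lower, with a median of 0.14. Nr3c1, the glucocorticoid receptor, fell from 180 ± 43.0 to 108 ± 6.40 CPM (adjusted p = 0.0311), Mt2 fell 3.51-fold and Zbtb16 rose 4.85-fold from 0.180 CPM. All 3 macrophage calls were lost without any 1 of the shGm26917 libraries, and the count without shNC replicate 2 was 2 higher and 4 lower. With library totals, 7 were lower in liver.

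The last list held genes that cleave, modify, bind or export annexins A1 and A2. In liver 5 of 14 were higher and 2 lower, with a median of 0.41, and 1 was lower without LPS replicate 2 or 3. Plaur, the urokinase receptor, rose 43.6-fold, Abca1, a lipid transporter linked to annexin A1 export, 3.97-fold and Egfr, whose kinase phosphorylates annexin A1, 3.18-fold, while the protease Adam10 fell by 0.93 and Trpm7, a channel kinase that phosphorylates annexin A1, by 0.80 on the log2 scale. In macrophages 1 of 13 was higher and 3 lower, with a median of 0.34. Prtn3, the neutrophil proteinase that cleaves annexin A1, was 0.067, 0.811 and 0.135 CPM with shNC and 6.06, 12.9 and 3.63 CPM with shGm26917 (log2 fold change 4.45, SE 0.85, adjusted p = 0.0142, and 0.0569 without shGm26917 replicate 2). Plat, the tissue plasminogen activator that annexin A2 binds, fell 6.41-fold, Plaur 3.28-fold and Egfr 2.80-fold, each call lost whenever 1 library other than shNC replicate 2 was left out. Without shNC replicate 2, 6 were higher and 5 lower. The count of higher genes in macrophages was 7 with library totals, 3 with DESeq2 and 2 with the replicate block. In liver it was 3 with library totals.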

How the data were processed

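The authors deposited 1 table of raw counts for each of the 12 libraries, with whole numbers of reads against Ensembl gene IDs and no normalization. STAR, featureCounts 1.6.3 and mm10 are named in the submitters' processing notes. Parameters, annotation release, use of strand, treatment of multi-mapping reads and the meaning of the word combined in the macrophage headers are not stated in the sources used here. Overlapping or near-identical genes may therefore share or lose reads.

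Groups and replicate numbers came from the sample titles and treatment labels. Each tissue was fitted alone in edgeR 4.0.16 (R 4.3.3) with group as the sole factor: filterByExpr at default settings, TMM scaling, quasi-likelihood F test (glmQLFit, glmQLFTest, 2-sided), and Benjamini-Hochberg adjustment over all genes tested (13869 in liver, 12876 in macrophages). Log2 fold changes are treated minus control, and SE is the absolute log2 fold change over the square root of F. CPM used TMM-scaled library sizes, and RPKM exon-union lengths of GENCODE M21. Symbols matched 49326 liver and 55141 macrophage IDs. The fit was also run on simulated counts in which a small share of genes changed, all of them upward. That run cannot vouch for calls in data where many genes changed in both directions. Counting intervals are 95% and cover counting error only.

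All 10 genes were described whatever their values. From each list, up to 4 called genes with the largest change per tissue were named, with genes that bind or cleave a member, and for 4 genes the 3 nearest profiles. Members and lists were chosen with earlier results of these data known, so no list was tested as a set. Alternatives were library totals, DESeq2 1.42.0, no count filter, at least 1 CPM in 3 libraries, a replicate block, all 12 libraries in one fit, and leaving out each library. A gene of the receptor signalling list enters its counts but is not reported here by name.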

Additional observations from a re-analysis of the deposited data

How the results depend on the processing

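Of the 12 calls among the 10 genes (6 per tissue), 7 held in all 12 alternative settings: Anxa11, Fpr1 and Fpr2 in liver, and Anxa1, Anxa3, Anxa4 and Fpr1 in macrophages. No call turned its direction. Library totals gave 1943 higher and 5305 lower genes in liver, with 2 of the 10 higher and 3 lower, and 3135 higher and 794 lower genes in macrophages, with 1 of the 10 lower. DESeq2 gave 5 of the 10 lower in macrophages. With 1 library left out, 3 to 5 of the 10 were higher and 1 to 2 lower in liver, and 1 to 5 lower in macrophages. In macrophages the genes called then ranged from 839 (without shGm26917 replicate 2) to 5236 (without shNC replicate 2), the higher ones from 479 to 2715, the lower ones from 360 to 2521, and the called genes of the lists from 10 to 45. The cause was not tested. Replicate numbers gave no pairing: deviations of same-numbered libraries correlated at 0.12, 0.05 and -0.08 in liver and -0.04, 0.24 and 0.18 in macrophages, and not every library correlated best with its own number. With a replicate block, 5754 genes were called in liver (3002 higher, 2752 lower) and 2594 in macrophages (1424 higher, 1170 lower). Among the 10 genes the block ended the liver call of Anxa1 (1.02, adjusted p = 0.0581) and no other call. Anxa1 had 46 to 157 counts per liver library, and 3 libraries per group limit every comparison.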
